A study of Rattus norvegicus with 40 samples.

Results

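The data described here are 10 of the 40 arrays of the series, the 5 preconditioned arrays numbered 16 to 20 (PC) and the 5 sham arrays numbered 16 to 20 (Sham), chosen by the number and treatment in their labels. Each array measured total RNA from rat cerebral cortex on 1-colour Affymetrix expression arrays. PC samples came from rats given hypoxic preconditioning, and Sham samples from rats kept in normal oxygen. Strain, age, oxygen level, length of exposure and the delay before sampling are not given in the sources, and the labels do not say what sets numbers 16 to 20 apart from 1 to 5, 6 to 10 and 11 to 15. The labels do not state that each sample is a separate animal. The p-values therefore refer to the spread among samples, part of which could be technical. In the unpaired fit that spread was taken from all 40 arrays of the series. In the paired fit and the permutation tests it was that of these 10 samples.

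Hypoxic preconditioning is a brief exposure to low oxygen that does not injure the brain and raises its tolerance to a later, harmful episode. Low oxygen stabilises the hypoxia-inducible factors (HIF), transcription factors that switch on genes for glucose uptake, glycolysis and vessel growth, and many of these transcripts return towards their earlier level when oxygen is restored. In the adult brain only a small share of cells divides, largely glial progenitors, and transcripts of the cell cycle can be dim in whole tissue. The age of these rats is not given. In bulk tissue fewer cells of a type and less RNA per cell cannot be told apart.

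Intensities under 16 were set to 16 and log2 was taken, so all levels and differences below are on the log2 intensity scale, with differences as PC minus Sham. Of 31042 probe sets without controls, 18625 were kept by mean level, and they named 10304 genes. The cortical neuron genes Tbr1, Fezf2, Bcl11b, Cux2, Neurod6 and Slc17a7 were present on all 10 arrays, from 6.84 at the lowest for Tbr1 to 10.71 at the highest for Neurod6. The median of an array was 5.71 to 5.76 in PC and 5.74 to 5.80 in Sham, a difference of -0.030 (exact permutation p = 0.119, two-sided, 252 arrangements). The share of all probe sets at the floor was 26.1% to 27.0% on PC arrays and 24.4% to 26.2% on Sham arrays (exact permutation p = 0.0159, and 0.0952 after Benjamini-Hochberg adjustment over 6 array measures; 0.00794 is the smallest p that 5 against 5 allows). These tests did not pair arrays by number. At every number the array median was lower, and the share at the floor higher, on the PC array than on the Sham array. The 3' to 5' ratios of actin lay between 1.45 and 1.61 in PC and between 1.46 and 1.63 in Sham.

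Arrays of the same number resembled each other, although the labels do not tie a number to a litter, batch or day. The deviations of a PC array from its group mean correlated with those of the Sham array of the same number at 0.393, 0.187, 0.111, 0.127 and 0.172 for numbers 16 to 20, against -0.263 to 0.0975 between arrays of different numbers. Each of the 10 arrays had its own number as its closest partner in the other group. Sex transcripts matched too. Eif2s3y, a Y chromosome gene, was 8.84 and 8.89 on PC arrays 16 and 19 and 9.34 and 8.97 on Sham arrays 16 and 19, and at the floor on the others, while Xist, made in females, was 9.89 or higher on arrays 17, 18 and 20 of both groups. Next, 25 probe sets were left out, those of sex chromosome genes and any that followed Xist over the 10 arrays (correlation over 0.9 in size). The same-number correlations were then 0.352, 0.161, 0.0837, 0.0466 and 0.138, so those of numbers 18 and 19 were under 0.1. Xist itself went by number on these arrays, so part of this fall follows from how the probe sets were chosen. Results are therefore given without pairing, from 1 limma fit of all 8 groups of the series, and paired by number in the 10 arrays alone.

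No single gene passed in either fit. Unpaired, 0 of 18625 probe sets (0%) reached an adjusted p under 0.05, and 952 (5.11%) had an unadjusted p under 0.05, of which 474 (2.54%) were higher and 478 (2.57%) lower in PC. Among the 10304 genes these were 208 higher (2.02%) and 304 lower (2.95%). Paired by number, again 0 probe sets (0%) passed and 1753 (9.41%) had an unadjusted p under 0.05, with 423 genes higher (4.11%) and 557 lower (5.41%). The smallest adjusted p was 0.0954 unpaired and 0.176 paired (limma). The plot of p-values shows a nearly flat distribution unpaired, with 931 probe sets in each bin if flat, and an excess at small p when paired.

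**Figure D1:**
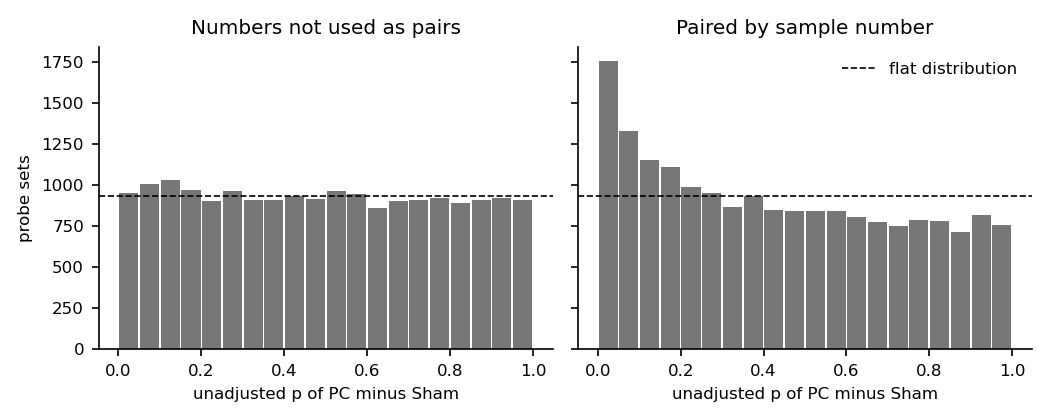
Number of probe sets (y axis) by unadjusted p of PC minus Sham (x axis, 20 bins) without pairing (left) and paired by sample number (right), with a dashed line at 931, the count per bin of a flat distribution. The lowest bin holds 952 probe sets unpaired and 1753 paired.

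The data bound how large any difference could be. The 95% interval of a probe set reached a median of 0.231 to either side of its estimate, or 1.17-fold, with 0.142 and 0.405 at the 10th and 90th percentiles, and 0.203 at the median when paired. For 8961 genes (87.0%) the whole interval lay within 0.5 of 0, or 1.41-fold, and for 10250 (99.5%) within 1, or 2-fold. The median size of a gene's difference was 0.074, with 47 genes differing by more than 0.5 and 0 by more than 1. In numbers 1 to 5, 6 to 10 and 11 to 15 the median size was 0.107, 0.108 and 0.085. The median SD within a group was 0.153 in PC and 0.160 in Sham. That SD describes single arrays and the difference is between means of 5 arrays, so they are unlike measures.

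A small shift of dim genes towards lower values ran through the table, and its size depended on the scaling. Of the genes, 4639 (45.0%) were higher and 5665 lower in PC, with a median difference of -0.014, and 46.1% were higher after quantile normalization. Median centring of the arrays gave 56.1% higher and a median of 0.017, so which side holds the majority is not settled by these values. The median difference was -0.043 in the dimmest 2061 genes (intensity 31.9 to 72.1) and -0.0017 in the brightest 2061, and -0.019 and -0.0044 after quantile normalization. The share of values at the floor, given above, moved the same way, and its part in the shift was not tested.

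Among single genes, Cdc25a stood first. It encodes the phosphatase that activates cyclin-dependent kinases at the entry into S phase and mitosis. Its level was 4.63, 4.38, 4.83, 4.55 and 4.67 on PC arrays 16 to 20, against 5.66, 5.60, 5.07, 5.65 and 5.48 on Sham arrays 16 to 20. All 5 PC arrays lay below all Sham arrays, with a gap between 4.83 and 5.07. The difference was -0.88 (95% interval -1.22 to -0.54; limma adjusted p = 0.0954, and 0.326 paired by number), a fold of 0.543. The gene is dim, and its probe set lay at the floor on 0 of the 10 arrays. It passed without the mean trend in the prior (limma adjusted p = 0.0256) and without Sham array 18 (0.0245). Over the other settings tried its limma adjusted p lay between 0.0879 and 0.758. The highest of these came from the unpaired fit of the 10 arrays alone, which does not use the spread of the other runs. Genes with PC and Sham ranges that do not overlap were 60 higher (0.582%) and 61 lower (0.592%).

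The other 9 genes with the smallest p among those lower in PC had differences between -0.92 and -0.21. Ccnb2, cyclin B2 of mitosis, was 6.52, 5.95, 6.29, 6.32 and 6.25 on PC arrays 16 to 20, against 6.91, 6.44, 6.94, 6.89 and 6.48 on Sham arrays 16 to 20. Its groups overlapped in range, but PC was below Sham in all 5 pairs, and the difference was -0.46 (95% interval -0.69 to -0.23; limma adjusted p = 0.475, and 0.326 paired by number). Metrnl, which encodes a secreted meteorin-like protein, differed by -0.56 (-0.83 to -0.28). Wipf3, of the WAS/WASL-interacting actin regulators, was 5.89, 6.16, 6.26, 6.03 and 6.40 on PC arrays 16 to 20, against 6.52, 6.94, 6.46, 6.63 and 6.75 on Sham arrays 16 to 20, without overlap, and differed by -0.51 (-0.77 to -0.26). Sys1, which helps to target proteins to the Golgi, and Tnpo2, a nuclear import receptor, differed by -0.26 (-0.39 to -0.12) and -0.32 (-0.49 to -0.15), each without overlap.

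Grm8, a presynaptic metabotropic glutamate receptor, had the smallest paired adjusted p of these genes. Its level was 6.16, 6.34, 6.39, 6.07 and 7.12 on PC arrays 16 to 20, against 7.35, 6.81, 7.63, 7.37 and 7.55 on Sham arrays 16 to 20. PC array 20 stood above the other 4 PC arrays and above Sham array 17, and PC lay below Sham in all 5 pairs. The difference was -0.92 (95% interval -1.40 to -0.44; limma adjusted p = 0.609, and 0.175 paired by number). A second kept probe set of Grm8 differed by 0.08 ± 0.12 (SE), in the other direction. Ndufab1, the acyl carrier protein of mitochondria and a subunit of complex I, was 10.09, 10.14, 10.48, 10.24 and 10.11 on PC arrays 16 to 20, against 10.25, 10.53, 10.67, 10.50 and 10.65 on Sham arrays 16 to 20, with PC below Sham in all 5 pairs, and differed by -0.31 (-0.48 to -0.14). Col23a1, a membrane collagen, and Vipas39, of vesicle sorting, differed by -0.52 (-0.81 to -0.23) and -0.21 (-0.34 to -0.09).

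The 10 genes with the smallest p among those higher in PC differed by 0.23 to 0.70, and all were higher in all 5 pairs. Dnm1l, the dynamin-related GTPase that divides mitochondria, was 9.38, 9.57, 9.47, 9.55 and 9.64 on PC arrays 16 to 20, against 9.35, 9.33, 9.16, 9.22 and 9.25 on Sham arrays 16 to 20. The groups did not overlap, and the difference was 0.26 (95% interval 0.13 to 0.39; limma adjusted p = 0.475, and 0.326 paired by number). Grn, the precursor of progranulin, a lysosomal growth factor rich in microglia and neurons, was 8.82, 8.82, 8.63, 8.86 and 8.77 on PC arrays 16 to 20, against 8.63, 8.48, 8.46, 8.56 and 8.63 on Sham arrays 16 to 20. Its lowest PC array, 18, lay just below the highest Sham array, and it differed by 0.23 (0.10 to 0.35).

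Slc7a11, the cystine-glutamate exchanger that feeds glutathione synthesis, was 8.07, 8.00, 7.90, 8.09 and 8.26 on PC arrays 16 to 20, against 7.94, 7.75, 7.76, 7.73 and 7.84 on Sham arrays 16 to 20. PC array 18 lay below Sham array 16, and the difference was 0.26 (0.11 to 0.41; limma adjusted p = 0.902, and 0.366 paired). Lrrc8c, a subunit of the volume-regulated anion channel, and Tmem17, of the primary cilium, each without overlap, differed by 0.30 (0.12 to 0.47) and 0.30 (0.11 to 0.48). Eps15l1, of clathrin-coated pits, was 6.32, 6.36, 6.43, 5.90 and 6.43 on PC arrays 16 to 20, against 5.48, 5.25, 5.80, 5.63 and 6.11 on Sham arrays 16 to 20, and PC array 19 lay apart below the other PC arrays. Its difference was 0.63 (0.25 to 1.01). Stard7, a lipid transfer protein of mitochondria, and Lin9, of the DREAM and MuvB complexes that control cell cycle genes, differed by 0.70 (0.26 to 1.14) and 0.55 (0.21 to 0.89), both at dim levels. Stard7 was at the floor on Sham array 20 and 4.56 to 5.60 on the other Sham arrays, against 5.17 to 6.03 on PC arrays. Its Sham array 17 lay above PC arrays 16, 19 and 20. Iws1, of transcript elongation, differed by 0.36 (0.17 to 0.55) and LOC102546572 by 0.32 (0.16 to 0.48).

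Of these 20 genes, 4 had other kept probe sets, 5 in all, and 3 of the 5 had the same sign. Of those, 1 had an unadjusted p under 0.05, for Sys1 (-0.32 ± 0.14, SE). Another of Sys1 differed by 0.01 ± 0.12, in the other direction. That of Dnm1l differed by 0.04 ± 0.13 and that of Lrrc8c by 0.14 ± 0.18. In the other runs the signs of the 20 genes were mixed. Of the 10 higher genes, 5, 4 and 5 had the same sign in numbers 1 to 5, 6 to 10 and 11 to 15, and of the 10 lower genes 6, 7 and 3. Grn differed by 0.24 and 0.23 in numbers 1 to 5 and 6 to 10, where it passed (limma adjusted p = 0.0239 and 0.0359), close to its 0.23 here.

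**Figure D2:**
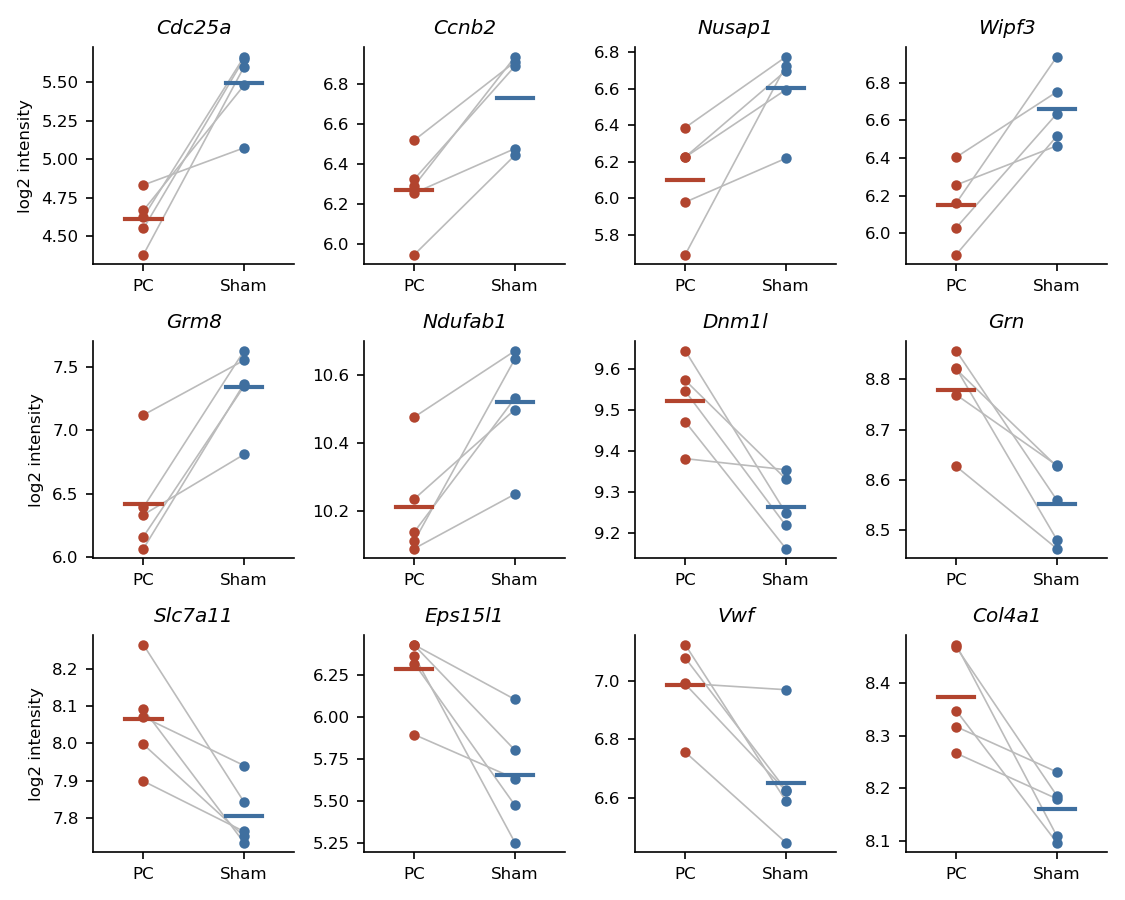
Log2 intensity (y axis) of 12 genes on the 5 PC arrays (left, red) and the 5 Sham arrays (right, blue), with a bar at each group mean and a grey line joining arrays of the same number. Cdc25a, Wipf3, Dnm1l and Col4a1 show no overlap between the groups, and none of the 12 passed the adjusted threshold.

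The largest shared shift among 29 gene lists was in the cell cycle and DNA replication list, where 47 of 63 measured genes were lower in PC and 16 higher. Unpaired, 16 of 63 (25.4%) were lower at an unadjusted p under 0.05 and 0 higher, beside 2.95% of all genes, and paired by number 21 (33.3%) were lower and 1 higher, beside 5.41% and 4.11%. The median difference of the list was -0.159, and -0.139 after quantile normalization and -0.129 after median centring, against medians of -0.014 over all genes and -0.043 over the dimmest 2061. PC was lower than Sham in every pair for 13 of the 63 genes (20.6%), beside 596 of all genes (5.78%), and higher in every pair for 2, beside 450 (4.37%). No member passed the adjusted threshold. The lists and their members were chosen with earlier results of these data known, so these shares are a description and no test was made of them.

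The mean level of the list was 6.63, 6.27, 6.54, 6.48 and 6.46 on PC arrays 16 to 20, against 6.80, 6.41, 6.66, 6.70 and 6.53 on Sham arrays 16 to 20. The groups overlapped, and both arrays of number 17 were low. PC was below its Sham partner in all 5 pairs, with differences of -0.164, -0.150, -0.123, -0.222 and -0.075. PC array 17 weighed on the unpaired value. Without it the list median was -0.078, with 7 of 63 genes lower at an unadjusted p under 0.05 and 1 higher. In that fit 376 of 18625 probe sets were lower at that p and 336 higher. Without Sham array 17 the list median was -0.202 with 21 lower, beside 475 of 18625 probe sets. Leaving out number 17 in both groups and pairing the other arrays gave -0.158, with 16 lower and 0 higher, beside 667 and 745 of 18625 probe sets. The fit without both arrays of number 17 was added after seeing the data. The median was also nearer 0 with 32 added to the intensities (-0.101) and with a filter at the 60th percentile, which left 30 of the genes (-0.101).

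The list was not divided by role, so no count is given by role. Among the 16 lower members at an unadjusted p under 0.05 were Bub1b, a spindle checkpoint kinase (-0.66, 95% interval -1.17 to -0.15), Cdk1, the mitotic kinase (-0.47, -0.82 to -0.12), its cyclin Ccnb2, and its partner Cks2 (-0.37, -0.69 to -0.04), with the mitotic kinases Plk1 (-0.39, -0.76 to -0.02) and Aurkb (-0.35, -0.68 to -0.03). The spindle and kinetochore genes Kif11, Spc25, Prc1, Hmmr and Racgap1 differed by -0.37 to -0.28. Nusap1, a microtubule-binding protein of the spindle, was 6.39, 5.98, 6.23, 5.69 and 6.23 on PC arrays 16 to 20, against 6.77, 6.22, 6.70, 6.73 and 6.59 on Sham arrays 16 to 20, with PC below Sham in all 5 pairs. Birc5, survivin of the chromosomal passenger complex, was 5.34, 5.58, 5.55, 5.70 and 5.76 on PC arrays 16 to 20, against 6.09, 5.99, 5.74, 6.13 and 6.12 on Sham arrays 16 to 20. Ube2c, of the anaphase-promoting pathway, differed by -0.34 (-0.62 to -0.06). Other mitotic members had intervals that included 0, such as Ccna2, cyclin A2 (-0.30, -0.77 to 0.17), Cdc20, an activator of the anaphase-promoting complex (-0.27, -0.70 to 0.15), and the kinase Aurka (-0.17, -0.58 to 0.24).

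Among members with roles around DNA replication, Mcm5, of the replicative helicase, differed by -0.51 (-0.89 to -0.13) and Dnmt1, the maintenance DNA methyltransferase, by -0.17 (-0.34 to -0.01). Tk1, thymidine kinase, differed by -0.27 (-0.54 to 0.00) and Prim1, of primase, by -0.27 (-0.55 to 0.02). Mcm4, of the same helicase, differed by 0.19 (-0.02 to 0.39), Pcna, the sliding clamp, by -0.03 (-0.20 to 0.14) and Mcm6 by -0.05 (-0.30 to 0.19). Mki67, the common marker of dividing cells, differed by -0.20 (-0.57 to 0.17) and Top2a by -0.10 (-0.37 to 0.17). The highest member was Smc4, of condensin, at 0.43 (-0.13 to 0.99).

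**Figure D3:**
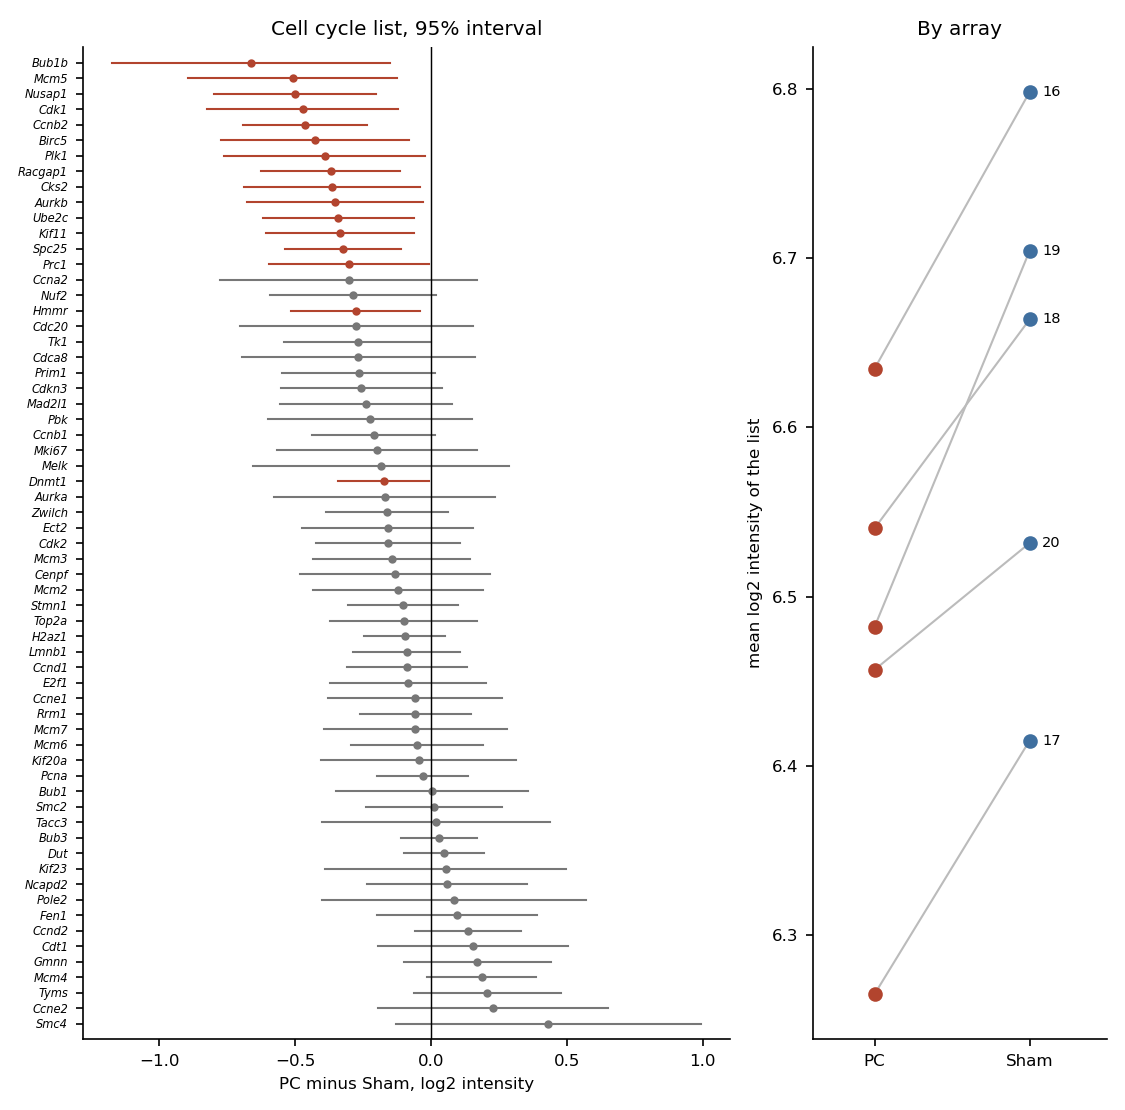
Left, difference of PC minus Sham in log2 intensity with its 95% interval for the 63 measured genes of the cell cycle list, red where the unadjusted p was under 0.05. Right, mean log2 intensity of the list on each PC array (left, red) and Sham array (right, blue), with lines joining the same number; 47 of the 63 genes lie below 0, and all 5 lines run lower on the PC side.

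The same list was also lower in the other runs, with medians of -0.183, -0.146 and -0.041 in numbers 1 to 5, 6 to 10 and 11 to 15. In these runs 3, 1 and 0 of its genes passed the adjusted threshold as lower, beside 1.15%, 1.12% and 0.0215% of all probe sets. Medians over all genes and over dim genes are not given for these runs, so a shift across a whole run was not set apart. Against each other run, 0 of 63 members had a changed difference, beside 0.424%, 0.301% and 0.0161% of all probe sets, shares at which fewer than 1 member would be counted. Cdc25a was not on the list, and differed by 0.02, -0.27 and -0.10 in those runs (limma adjusted p of the change 0.0854, 0.343 and 0.284).

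Promoters of the lower cell cycle genes are shown because CCAAT boxes and the CHR element TTTGAA are known as elements of genes expressed in G2 and M phase. The sequences are those of RefSeq (GRCr8), from 250 bases before to 50 after the start of the gene, with TTTGAA and CCAAT in capitals on either strand (TTCAAA and ATTGG where they lie on the other strand). Printed are Ccnb2 (chr8:79981609-79981908, minus strand), Nusap1 (chr3:127057045-127057344, plus strand) and Cdk1 (chr20:19265043-19265342, plus strand).
Ccnb2: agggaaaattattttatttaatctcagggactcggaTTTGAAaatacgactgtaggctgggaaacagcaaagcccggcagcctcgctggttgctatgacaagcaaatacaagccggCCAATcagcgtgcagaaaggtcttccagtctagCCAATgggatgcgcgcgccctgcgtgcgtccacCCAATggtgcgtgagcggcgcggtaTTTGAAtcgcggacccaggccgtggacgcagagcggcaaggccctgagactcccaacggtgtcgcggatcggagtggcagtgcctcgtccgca
Nusap1: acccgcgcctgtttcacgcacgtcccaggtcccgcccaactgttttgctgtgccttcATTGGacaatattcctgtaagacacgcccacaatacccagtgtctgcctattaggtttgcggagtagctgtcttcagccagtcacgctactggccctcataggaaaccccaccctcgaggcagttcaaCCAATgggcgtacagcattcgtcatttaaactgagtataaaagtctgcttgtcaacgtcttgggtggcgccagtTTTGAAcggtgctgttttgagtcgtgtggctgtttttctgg
Cdk1: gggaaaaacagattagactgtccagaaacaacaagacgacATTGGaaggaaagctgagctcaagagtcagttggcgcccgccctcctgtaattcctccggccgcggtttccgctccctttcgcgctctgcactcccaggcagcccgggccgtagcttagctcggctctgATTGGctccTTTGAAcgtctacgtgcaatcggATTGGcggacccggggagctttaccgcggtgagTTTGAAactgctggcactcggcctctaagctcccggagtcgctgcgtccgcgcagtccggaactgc
Of the 16 lower genes, 13 had a promoter in the table, of which 10 (76.9%) held TTTGAA and 12 (92.3%) CCAAT. Among the other 47 measured genes of the list, 39 had one, and 19 (48.7%) and 26 (66.7%) held them. Over 33469 promoters of this length the shares were 18.5% and 37.3%. The 16 were picked by their differences, so no test was made, and a match to these letters is a description and not a binding site.

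Genes of mitochondrial respiration shared a small negative difference. Of 55 measured genes of oxidative phosphorylation, 42 were lower in PC, with a median of -0.055 (-0.054 after quantile normalization, -0.025 after median centring). Unpaired, 1 was lower at an unadjusted p under 0.05, Ndufa5 of complex I (-0.15, -0.27 to -0.02), and paired 7 (12.7%, beside 5.41%), among them Cox5b of complex IV at -0.14 and Uqcrq of complex III at -0.14. PC was lower in every pair for 9 of the 55 (16.4%, beside 5.78%). The list's pair values were not all lower, 2 of 5 being just above 0. Cytosolic ribosomal protein genes were lower in 31 of 35 with a median of -0.044, but -0.008 after quantile normalization and -0.014 after median centring, with 0 at an unadjusted p under 0.05. In the other runs this list was higher, with medians of 0.201, 0.131 and 0.10.

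The hypoxia response lay near 0 as a list. Of 37 measured HIF targets and glycolysis genes 23 were higher and 14 lower, with a median of 0.007, and the whole interval of 36 lay within 0.5 of 0. Vegfa, the vessel growth factor, was 7.71, 7.94, 8.04, 7.94 and 7.77 on PC arrays 16 to 20, against 7.67, 7.91, 7.86, 7.81 and 7.55 on Sham arrays 16 to 20. PC lay above Sham in all 5 pairs but by little, and the difference was 0.12 (-0.05 to 0.29). Slc2a1, which carries glucose across brain capillaries, differed by 0.06 (-0.10 to 0.22) and Ldha, lactate dehydrogenase, by 0.07 (-0.12 to 0.25).

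The members with the smallest p were Ddit4 and Egln1. Ddit4, an inhibitor of mTOR that responds to hypoxia and stress, was 8.74, 8.57, 8.68, 8.76 and 8.89 on PC arrays 16 to 20, against 8.67, 8.41, 8.58, 8.51 and 8.59 on Sham arrays 16 to 20. PC lay above Sham in all 5 pairs, and the difference was 0.18 (95% interval 0.02 to 0.34; limma adjusted p = 0.927, and 0.42 paired by number). Egln1, the oxygen-sensing prolyl hydroxylase that marks HIF for breakdown, was 7.90, 7.67, 7.75, 7.62 and 7.64 on PC arrays 16 to 20, against 7.77, 8.10, 7.80, 8.10 and 7.76 on Sham arrays 16 to 20, with PC below Sham in 4 of 5 pairs and a difference of -0.19 (-0.35 to -0.03). Bnip3, of mitophagy, had PC above Sham in all 5 pairs and differed by 0.16 (-0.01 to 0.34; limma adjusted p = 0.927, and 0.445 paired).

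Stress hormone and activity lists had small medians. The 20 glucocorticoid response genes had a median of 0.024, with Sgk1, a kinase induced by corticosteroids, at 0.09 (-0.07 to 0.25) and Tsc22d3, a direct glucocorticoid target, at 0.07 (-0.06 to 0.21). The 22 immediate early genes, which neurons switch on within minutes of activity, had a median of -0.026 (0.004 after median centring), with 13 lower and 9 higher. Unpaired, 1 was lower at an unadjusted p under 0.05, and paired 3 were lower (13.6%, beside 5.41%) and 0 higher. These were Zfp36, Dusp1, a phosphatase of MAP kinases (-0.25, unpaired interval -0.56 to 0.06), and Jun (-0.18, -0.37 to 0.01), of the AP-1 factor. Zfp36 and Ier2 (-0.22, -0.52 to 0.08) had no overlap between the groups (9.09%, beside 0.592%). The mean level of the list was lower in PC in 4 of 5 pairs. Zfp36, which destabilises inflammatory mRNAs, was 4.74, 4.56, 4.90, 4.72 and 4.72 on PC arrays 16 to 20, against 5.08, 5.24, 4.94, 5.11 and 5.33 on Sham arrays 16 to 20, with PC below Sham throughout, and differed by -0.41 (-0.79 to -0.03; limma adjusted p = 0.927). Fos differed by 0.27 (-0.25 to 0.79), Egr1 by -0.05 (-0.37 to 0.27) and Arc by -0.23 (-0.60 to 0.14).

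Vessel genes went different ways. Vwf, von Willebrand factor of endothelial cells, was 6.99, 6.99, 6.76, 7.12 and 7.08 on PC arrays 16 to 20, against 6.62, 6.97, 6.45, 6.59 and 6.63 on Sham arrays 16 to 20, with PC above Sham in all 5 pairs, and differed by 0.34 (0.08 to 0.59; limma adjusted p = 0.925). Col4a1, a collagen of vascular basement membranes, was 8.32, 8.27, 8.47, 8.47 and 8.35 on PC arrays 16 to 20, against 8.23, 8.18, 8.11, 8.19 and 8.10 on Sham arrays 16 to 20. All PC arrays lay above all Sham arrays, and the difference was 0.21 (0.06 to 0.37). Both had positive differences in the other runs too, 0.49, 0.54 and 0.61 for Vwf and 0.29, 0.34 and 0.34 for Col4a1, and their difference in numbers 16 to 20 was not shown to differ from those (limma adjusted p of the change 0.63 or higher). The endothelial list as a whole had 11 genes higher and 11 lower.

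Acta2 and Myh11, of contractile wall cells, and the pericyte gene Rgs5 had differences of opposite sign. Acta2, smooth muscle actin, was 8.25, 7.64, 8.00, 7.58 and 7.63 on PC arrays 16 to 20, against 8.55, 7.76, 8.28, 8.03 and 8.37 on Sham arrays 16 to 20, with PC below Sham in all 5 pairs, and differed by -0.38 (-0.72 to -0.03; limma adjusted p = 0.927, and 0.326 paired). Myh11, smooth muscle myosin, was 4.11, 4.33, 5.36, 5.28 and 4.80 on PC arrays 16 to 20, against 5.40, 5.42, 5.38, 5.62 and 5.55 on Sham arrays 16 to 20, with PC below Sham throughout, and differed by -0.70 (-1.28 to -0.11). Rgs5, a regulator of G-protein signalling in pericytes, differed by 0.19 (0.03 to 0.36). The list of 10 pericyte and smooth muscle genes split 5 and 5, its median (0.029) and the mean of its pair values (-0.054) having opposite signs.

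Some markers of the meninges were lower too. Col1a1 and Col3a1, fibrillar collagens of the meninges and larger vessels, differed by -0.35 (-0.61 to -0.09) and -0.26 (-0.47 to -0.05), and Igf2, made by meninges and choroid plexus, by -0.30 (-0.54 to -0.06). All 3 had PC below Sham in all 5 pairs. At number 18 the gap was small for the collagens, with PC 7.61 and Sham 7.63 for Col1a1, and PC 9.25 and Sham 9.30 for Col3a1. PC array 17 lay apart below the other PC arrays for both collagens, and Sham array 19 lay apart above the other Sham arrays for Col1a1. Igf2 was 9.14, 8.85, 9.31, 9.38 and 9.14 on PC arrays 16 to 20, against 9.45, 9.28, 9.39, 9.74 and 9.47 on Sham arrays 16 to 20. Of the 17 measured choroid plexus and meninges genes, 12 were lower, with a median of -0.045 (-0.020 after quantile normalization, and -0.014 after median centring, with 8 higher). With 1 array left out the median lay between -0.117 and -0.003. Ttr, the main product of choroid plexus, differed by -0.05. The mean level of that list was 7.29 to 7.62 in PC and 7.39 to 7.64 in Sham. How far the amount of meninges on the samples bears on the vessel wall or cell cycle values was not tested.

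Glial and neuronal lists had medians under 0.07 in size at this scaling. Of 22 astrocyte genes, 16 were higher with a median of 0.046 (0.065 after quantile normalization, 0.076 after median centring). With 1 array left out it lay between -0.009 (without Sham array 16) and 0.108 (without PC array 16), so its sign was not stable. Unpaired, 0 reached an unadjusted p under 0.05. Paired, 5 were higher (22.7%, beside 4.11%) and 2 lower. The 5 were Glul, glutamine synthetase (0.20), Gja1, connexin 43 (0.19), Mlc1 (0.18), Id3 (0.13) and Ntsr2 (0.27), each with PC above Sham in all 5 pairs, and the 2 were Atp1b2 (-0.17) and Fabp7, a radial glia marker (-0.15). Gfap differed by 0.03 (-0.35 to 0.41), or 0.785-fold to 1.32-fold.

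Of 14 microglia and macrophage genes, 10 were higher with a median of 0.064 (0.077 after quantile normalization, 0.094 after median centring). Without PC array 17 it was -0.038 and without Sham array 17 0.128. Paired, 4 were higher at an unadjusted p under 0.05 (28.6%, beside 4.11%) and 1 lower. The 4 were Mrc1, the complement genes C1qa (0.26) and C1qb (0.23), and Ctss, cathepsin S (0.17), each with PC above Sham in 4 of 5 pairs. Mrc1, the mannose receptor of perivascular macrophages, was 6.19, 6.20, 5.73, 6.04 and 6.20 on PC arrays 16 to 20, against 5.66, 5.34, 5.26, 6.07 and 5.96 on Sham arrays 16 to 20, with PC above Sham in 4 of 5 pairs, and differed by 0.42 (0.12 to 0.71). Tyrobp, the signalling adaptor of microglial receptors, was 4.82, 5.68, 5.48, 5.65 and 5.05 on PC arrays 16 to 20, against 4.85, 6.06, 5.98, 6.10 and 5.98 on Sham arrays 16 to 20, with PC below Sham in all 5 pairs, and differed by -0.46 (-0.86 to -0.05). Cortical excitatory neuron genes had a median of 0.057 over 17 genes (0.087 after median centring), and 25 glutamate and GABA receptor genes one of 0.013. The synaptic vesicle list had 13 of 22 genes lower, with a median of -0.016 (0.014 after median centring). Its member Sv2b, a synaptic vesicle glycoprotein, had PC above Sham in all 5 pairs and differed by 0.17 (0.01 to 0.33). Of 15 oligodendrocyte and myelin genes, 9 were lower with a median of -0.021 (0.009 after median centring). Olig1, a transcription factor of the lineage, differed by -0.13 (-0.27 to 0.01), with PC below Sham in all 5 pairs, and Fa2h, which makes hydroxylated myelin lipids, by -0.36 (-0.71 to 0.00). Mbp, of myelin, spanned 8.92 to 10.54 in PC and 8.56 to 10.41 in Sham, and arrays of the same number were alike: PC lay above Sham in all 5 pairs, with a difference of 0.15 (unpaired interval -0.33 to 0.63; limma adjusted p = 0.979, and 0.461 paired).

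**Figure D4:**
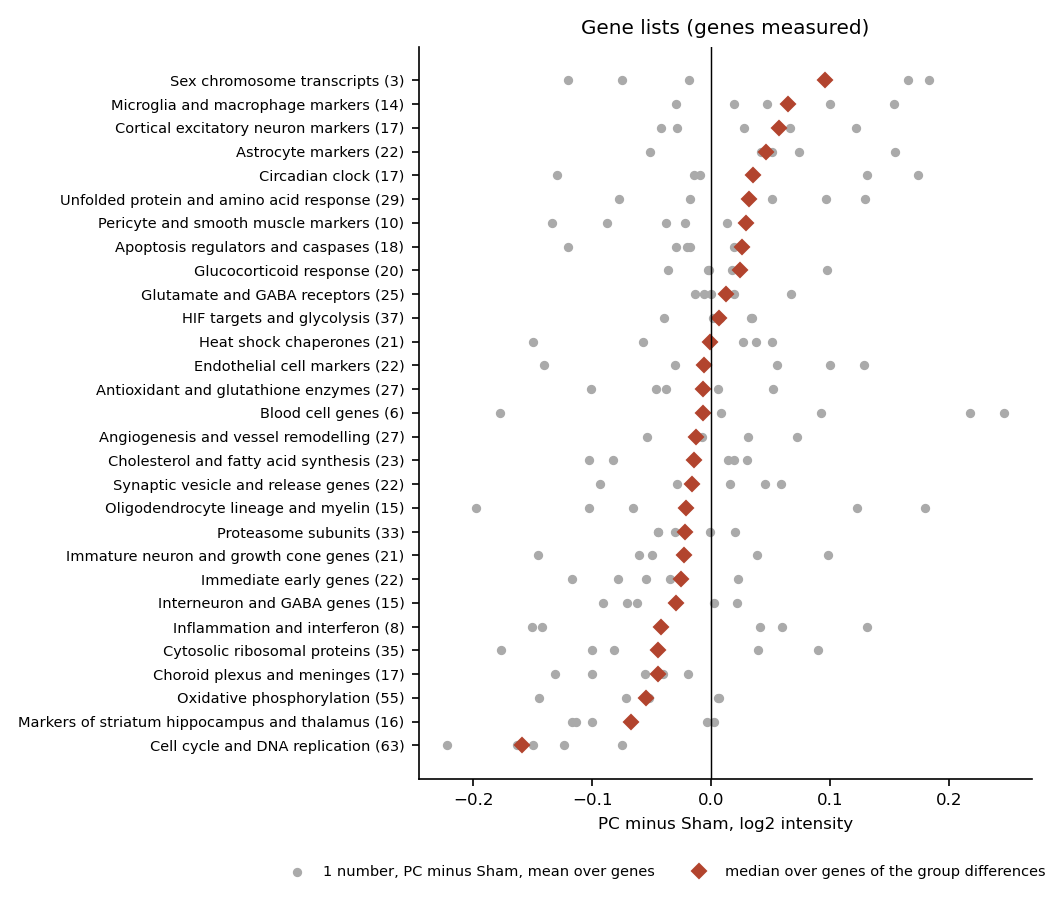
Median difference of PC minus Sham in log2 intensity (red diamonds) for 29 gene lists, with the number of measured genes in brackets, and the PC minus Sham difference of the list's mean level in each of the 5 sample numbers (grey points). The cell cycle list lies at -0.159 with all 5 numbers below 0, and the choroid plexus and meninges list is the other list with all 5 below 0.

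Single members of other lists had an unadjusted p under 0.05, as did 5.11% of all probe sets. Scd, which makes monounsaturated fatty acids, was 6.54, 6.88, 7.15, 6.95 and 6.98 on PC arrays 16 to 20, against 7.15, 7.41, 7.41, 7.12 and 7.34 on Sham arrays 16 to 20, with PC below Sham in all 5 pairs, and differed by -0.39 (-0.65 to -0.12). Txnrd1, thioredoxin reductase, differed by -0.20 (-0.38 to -0.02), Cldn11, the tight junction protein of myelin, by 0.22 (0.01 to 0.43) and Foxp1, a transcription factor of striatum and deep cortex, by 0.19 (0.03 to 0.35). Foxp1 belongs to the list of striatum, hippocampus and thalamus markers, of which 12 of 16 were lower, with a median of -0.067 (-0.065 after quantile normalization, -0.037 after median centring, and -0.074 to -0.023 with 1 array left out). Ahsp, the haemoglobin chaperone of red cells, differed by 0.52 (0.01 to 1.03). Its level on Sham array 16 was 4.03, near the floor, against 5.05 to 5.37 on the other Sham arrays, so that array weighed on the difference. The proteasome list had 25 of 33 genes lower at a median of -0.022, and 0.008 after median centring.

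The difference seen in other runs was tested against that of numbers 16 to 20 for every probe set. Those runs had 445 (2.39%), 413 (2.22%) and 13 (0.0698%) probe sets passing in numbers 1 to 5, 6 to 10 and 11 to 15, against 0 here. Numbers 16 to 20 differed from 1 to 5 at 79 probe sets (0.424%; 64 genes), with the PC minus Sham difference lower at 55 and higher at 24. Against 6 to 10 the count was 56 (0.301%; 45 genes), 31 lower and 25 higher, and against 11 to 15 it was 3 (0.0161%). Of the 79 and 56, 70 and 52 had also passed in the other run itself.

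Hypoxia targets were among these changes. Slc2a1 differed by 0.06 ± 0.08 here (SE) and 1.46 ± 0.08 in numbers 1 to 5, a change with a limma adjusted p of 2.4e-11. Its interval here, -0.10 to 0.22, excludes the value there. Vegfa differed by 0.12 ± 0.08 here, against 1.42 and 0.83 in numbers 1 to 5 and 6 to 10 (limma adjusted p of the change 6.09e-10 and 0.00122), and 0.34 in 11 to 15, from which no change was shown (0.548). Kdm3a, a HIF-induced histone demethylase, differed by -0.15 here, against 1.31 and 0.51 in numbers 1 to 5 and 6 to 10 (limma adjusted p of the change 1.34e-10 and 0.0058). Angpt2, the vessel-destabilising angiopoietin, differed by 0.10 here, against 1.41 and 1.82 there (limma adjusted p of the change 0.00593 and 0.000347).

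Some genes had opposite signs. Slc40a1, ferroportin, the exporter of iron from cells, was 7.11, 6.96, 7.02, 6.80 and 7.24 on PC arrays 16 to 20, against 6.36, 6.77, 6.89, 6.35 and 7.03 on Sham arrays 16 to 20, with PC above Sham in all 5 pairs and a difference of 0.35 (0.10 to 0.60). In numbers 1 to 5 and 6 to 10 it had differed by -0.94 and -0.76 (limma adjusted p of the change 1.2e-05 and 0.000611). Prkce, protein kinase C epsilon, long studied in preconditioning of heart and brain, was 8.70, 9.00, 8.68, 8.81 and 8.79 on PC arrays 16 to 20, against 8.81, 8.90, 9.18, 9.08 and 9.11 on Sham arrays 16 to 20. Its difference was -0.22 (-0.38 to -0.05), with PC below Sham in 4 of 5 pairs, against 0.45 ± 0.08 in numbers 11 to 15 (limma adjusted p of the change 0.0213) and 0.29 in 1 to 5 (0.0274). Pla1a, a phosphatidylserine-specific phospholipase, differed by -0.35 (-0.74 to 0.04) here, against 1.30 and 1.16 in 6 to 10 and 11 to 15 (limma adjusted p of the change 0.00092 and 0.0213). The third probe set that changed from 11 to 15 was Thumpd3-as1, at 0.35 here and -0.56 there (limma adjusted p of the change 0.0418). Its 5 PC arrays lay above its 5 Sham arrays. As an antisense gene it depends on the strand its probes read, which the files do not state. These 3 changes from 11 to 15 lay close to the threshold and kept their size when single arrays were left out. That of Pla1a was -1.41 without PC array 20 and -1.48 without Sham array 18 (limma adjusted p = 0.092 and 0.0589), and that of Prkce -0.67 and -0.63 without the same arrays (limma adjusted p = 0.0518 and 0.0589). That of Thumpd3-as1 was 0.85 to 0.91 without PC array 18, 19 or 20 or Sham array 17, 18 or 20, with a limma adjusted p of 0.0535 to 0.124.

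**Figure D5:**
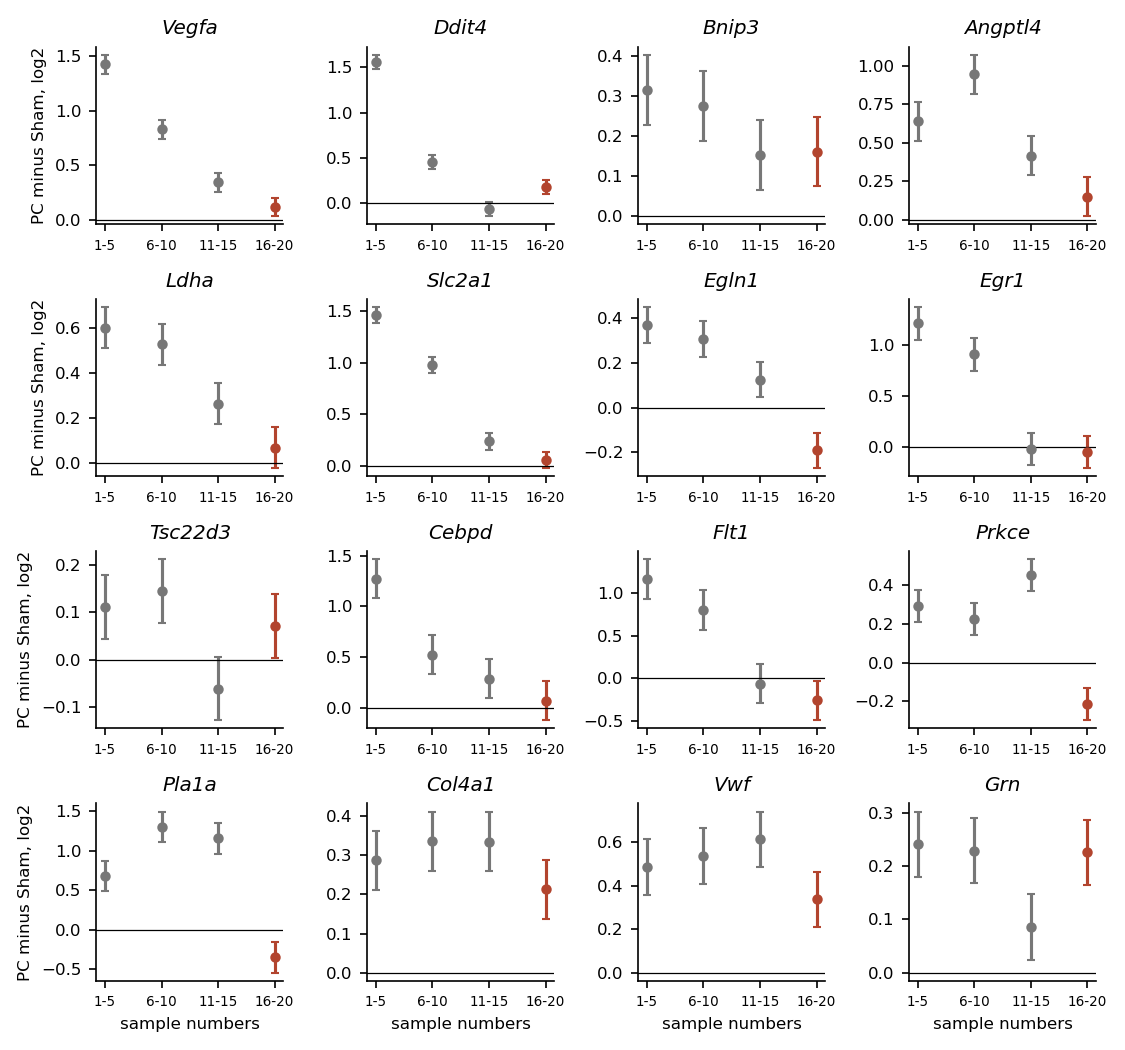
PC minus Sham difference in log2 intensity with its standard error (y axis) for 16 genes in the 4 runs of sample numbers (x axis), with numbers 16 to 20 in red. Slc2a1, Vegfa and Ddit4 lie far above 0 in numbers 1 to 5 and near it in 16 to 20, Vwf and Col4a1 lie above 0 in all 4 runs, and Prkce, Egln1 and Pla1a lie below 0 in 16 to 20 alone among the 4.

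The sets that passed elsewhere had small differences here. The 230 probe sets that were higher in numbers 1 to 5 had a median difference of 0.027 in 16 to 20 (0.429 in their own run), and 61.7% were above 0, beside 48.7% of all probe sets. Of them 14 (6.09%, beside 2.54% of all probe sets) were higher here at an unadjusted p under 0.05 and 7 lower. The 204 higher in 6 to 10 had a median of 0.034 (0.419 in their own run), with 64.2% above 0. Those lower in these runs, 215 and 209, had medians of 0.003 and 0.010, with 48.4% and 47.4% below 0, beside 51.3% of all. The sets were picked by their values in the other run, and the arrays of the runs are separate. Under median centring the 230 and 204 had medians of 0.057 and 0.064.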

How the data were processed

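The authors deposited 1 linear intensity per probe set and array; their software is not given in the sources. With 2% of probe sets trimmed at each end, every array's mean intensity was 150.04 to 150.06, so the deposited arrays share a scale. Intensities were floored at 16 and log2 transformed. Control probe sets (57 of 31099) were left out, and probe sets with a mean at or above the 40th percentile (intensity 31.9) were kept. Genes were named from the platform annotation, 1 probe set per gene by highest mean; 20764 of 20832 matched RefSeq.

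limma 3.58.1 (R 4.3.3; lmFit, eBayes with a mean trend) fitted 8 group means over 40 arrays, with the PC minus Sham contrast of numbers 16 to 20 and its differences from the other runs. The paired fit used the number as a block in 10 arrays, because all 5 same-number correlations exceeded 0.1. Without the probe sets of sex chromosome genes or following Xist, 3 of 5 did. The labels do not say what a number shares. P-values were two-sided and adjusted over 18625 probe sets by Benjamini-Hochberg at 0.05. Named genes were the 10 smallest p per direction, a panel of 44, up to 3 members per list at an unadjusted p under 0.05, genes changed between runs, and genes passing under an alternative setting. Members and lists were chosen with earlier results of these data known. The fits were also run on simulated data with independent noise on each array. Those data held no effect shared by a number, so they cannot check the fits under pairing. Figures used Python 3.11.15 and matplotlib 3.10.9. Alternatives were other normalizations, floors, filters and priors, the number block, an Xist covariate and left-out arrays.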

Additional observations from a re-analysis of the deposited data

Results flagged for a closer look

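In 11 of 184 groups of 5 values checked, the named genes and 4 array measures in PC and Sham, 1 array lay apart from the other 4 by more than Dixon's 95% critical value of 0.71 of the range, and chance alone gives about 1 in 20. PC array 17 accounted for 5 of them and was low each time. It held 9.65 against 9.97 to 10.03 on the other 4 PC arrays for Vim, 5.56 against 6.36 to 6.61 on the other 4 for Mki67 and 6.28 against 6.68 to 6.80 on the other 4 for Spc25. For the collagens it held 6.80 against 7.43 to 7.61 on the other 4 for Col1a1 and 8.61 against 9.09 to 9.25 on the other 4 for Col3a1. Sham array 16 was low for Tyrobp (4.85 against 5.98 to 6.10 on the other 4), Ahsp (4.03 against 5.05 to 5.37 on the other 4) and Vcl (7.41 against 7.76 to 7.84 on the other 4), and Sham array 19 was high for Col1a1 (8.11 against 7.59 to 7.67 on the other 4). PC array 19 was low for Eps15l1 (5.90 against 6.32 to 6.43 on the other 4) and PC array 18 for Tsc22d3 (8.61 against 8.73 to 8.77 on the other 4).

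The PC minus Sham difference of 33 named genes in numbers 16 to 20 differed from that of another run by limma's test of the change itself (adjusted p under 0.05 over 18625 probe sets), in 50 gene and run combinations. Values are the difference in 16 to 20 minus that in the other run, on the log2 scale. Against numbers 1 to 5 it was lower for Vegfa (-1.3), Slc2a1 (-1.4), Ldha (-0.53), Egln3 (-0.6), Kdm3a (-1.46), Ak4 (-1.1), Ddit4 (-1.38), Sgk1 (-0.53), Errfi1 (-0.58), Cebpd (-1.21), Fos (-2.35), Egr1 (-1.26), Dusp1 (-1.05), Angpt2 (-1.31), Apln (-1.19), Flt1 (-1.43), Plat (-1), Egln1 (-0.56), Zfp36 (-1.53), Vcl (-0.49), Prkce (-0.51) and Cnn2 (-0.82), and higher for Iws1 (0.62), Tmem17 (0.59), Lin9 (0.99), Slc40a1 (1.29), Slco1c1 (0.65) and Serpinb6b (1.1). Against numbers 6 to 10 it was lower for Vipas39 (-0.37), Vegfa (-0.71), Slc2a1 (-0.92), Kdm3a (-0.67), Angptl4 (-0.8), Ak4 (-0.82), Egr1 (-0.96), Angpt2 (-1.72), Apln (-0.77), Plat (-0.57), Pla1a (-1.65), Egln1 (-0.5), Vcl (-0.72) and Cnn2 (-0.87), and higher for Iws1 (0.73), Slc40a1 (1.11), Slco1c1 (0.71), Serpinb6b (1.2) and Elp4 (0.61). Against numbers 11 to 15 it was lower for Pla1a (-1.5) and Prkce (-0.67) and higher for Thumpd3-as1 (0.9). What the runs stand for is not given in the labels, so run and any batch of handling cannot be told apart.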

How the results depend on the processing

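The absence of passing probe sets in numbers 16 to 20 held under all but 2 of the settings listed in the processing summary, the fit without a mean trend and the one without Sham array 18, which gave 1, Cdc25a. Probe sets at an unadjusted p under 0.05 numbered 952 and, without a filter, 1475. With the sample number as a block, the 10 arrays gave 1753, and 1778 after quantile normalization as well, and all 40 arrays gave 1270, with 0 passing each time. Leaving out 1 array at a time gave 712 (without PC array 17) to 1270 (without PC array 18), 0 to 1 passing, and a median half-width of 0.244 to 0.247. Leaving out 1 number and pairing the other 8 arrays, chosen after seeing the data, gave 0 to 3 passing and 1410 to 1922 at an unadjusted p under 0.05. Those were 2 without number 16 (1557 unadjusted), of which Trio is the named one, and 3 unnamed probe sets without number 18. The cell cycle list stayed below 0 in all alternatives run, at -0.101 with a pseudocount of 32 or a filter at the 60th percentile (30 genes), -0.202 to -0.078 with 1 array left out and -0.158 to -0.138 with 1 pair left out. Without the 2 genes it shares with other lists its median stayed at -0.159. Of 29 list medians, 18 took both signs as 1 array at a time was left out, and 13 as 1 pair was.

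Probe sets whose difference changed from numbers 6 to 10 numbered 56, and 90 with the number as a block in all 40 arrays. From 11 to 15 they numbered 3, and 12 with that block, 6 after quantile normalization, 5 after median centring, 5 with a robust prior, 13 without preconditioned arrays 5 and 6 and 0 without a filter. With 1 array left out the counts were 57 to 81, 32 to 45 and 0 to 5 from 1 to 5, 6 to 10 and 11 to 15. Those from 6 to 10 were 32 to 35 without PC array 18 or 19 or Sham array 19 or 20, and those from 11 to 15 were 0 without PC array 20 or Sham array 18. Of the 50 changes of named genes, 31 passed under every setting that gave a value and 19 failed under at least 1, most often that of Ldha from 1 to 5 (13 of 21). None turned its sign. The cause of these shifts was not tested. Median centring lifted the medians of probe sets passing in other runs to 0.057 and 0.064 for those higher and 0.033 for those lower in 1 to 5.

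Depth here is signal over the floor. With 5 arrays a side most genes are bounded within 0.5 on the log2 scale, while dim genes have wider intervals. No detection calls were used, samples are not shown to be separate animals, and dissection, cell composition and RNA per cell cannot be told apart from regulation in bulk cortex.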
